A study of Sus scrofa with 70 samples.

Results

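The vesicular gland (VG) and the bulbourethral gland (BG) of the boar were compared gene by gene in 12 RNA-seq libraries, 6 from each gland, of the 30 RNA-seq libraries and 70 samples of the series. The members were chosen by tissue label alone: every RNA-seq library labelled vesicular gland was set against every one labelled bulbourethral gland. The pigs were adult males of 12 months from the Banna mini-pig inbred line (BMI) and the Diannan small-ear pig (DSE), and each gland had 3 BMI and 3 DSE libraries. No treatment, deletion or transgene was involved, and a whole gland with all of its cell types was the material. The labels do not say whether libraries with the same number came from the same animal or whether each came from a separate animal, so p values measure the spread between these libraries. Values are TPM, a level scaled by transcript length and by the total of each library, summed over all transcripts of a gene. Of 35552 genes in the table, 13221 reached at least 1 TPM in at least 6 of the 12 libraries and were tested.

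Both glands add fluid to semen. The vesicular gland of the boar is known as the main source of seminal plasma protein, above all of the spermadhesins, small secreted proteins that coat sperm, and of fructose, inositol and citrate. The bulbourethral gland of the boar is large and is known for the viscous secretion, rich in sialic acid, that forms the gel of the ejaculate. Gel-forming mucins are long glycoproteins that are folded and cross-linked in the endoplasmic reticulum (ER), carry sugar chains added in the Golgi and often end in sialic acid.

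The sequences before the starts of the leading genes of each gland are shown first, since 5 of those of the VG genes are nearly the same. In Sscrofa11.1, the build of the files, the 5 spermadhesin genes AWN, AQN-1, PSP-II, PSP-I and SPMI lie side by side at chr14:132240887-132321592. Windows of 150 bases before and 20 bases after the start of the isoform with most TPM were read from the RefSeq copy of that build. For PSP-I the start with the second most TPM, 43.5% of the gene, is shown as well. Capitals mark TATATA or TATAAA, forms of the TATA box, on the strand of the gene within 40 bases before the start.
AWN, chr14:132240737-132240906 (+ strand): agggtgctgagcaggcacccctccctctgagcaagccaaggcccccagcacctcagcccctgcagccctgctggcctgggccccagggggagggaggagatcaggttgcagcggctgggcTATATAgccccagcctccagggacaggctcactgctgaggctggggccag
AQN-1, chr14:132258912-132259081 (+ strand): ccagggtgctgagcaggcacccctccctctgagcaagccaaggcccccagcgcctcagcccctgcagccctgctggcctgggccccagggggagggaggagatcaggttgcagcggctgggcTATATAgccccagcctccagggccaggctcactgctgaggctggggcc
PSP-II, chr14:132274091-132274260 (+ strand): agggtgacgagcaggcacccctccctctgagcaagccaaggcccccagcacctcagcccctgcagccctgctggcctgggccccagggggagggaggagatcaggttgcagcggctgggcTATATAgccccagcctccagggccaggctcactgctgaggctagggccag
PSP-I, second start, chr14:132302202-132302371 (+ strand): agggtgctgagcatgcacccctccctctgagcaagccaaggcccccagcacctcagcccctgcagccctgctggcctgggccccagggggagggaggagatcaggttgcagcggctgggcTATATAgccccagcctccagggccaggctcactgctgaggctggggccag
SPMI, chr14:132321573-132321742 (- strand): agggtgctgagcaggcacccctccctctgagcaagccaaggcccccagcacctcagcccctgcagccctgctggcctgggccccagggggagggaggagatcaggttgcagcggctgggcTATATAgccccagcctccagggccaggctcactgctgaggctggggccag
PSP-I, first start, chr14:132302018-132302187 (+ strand): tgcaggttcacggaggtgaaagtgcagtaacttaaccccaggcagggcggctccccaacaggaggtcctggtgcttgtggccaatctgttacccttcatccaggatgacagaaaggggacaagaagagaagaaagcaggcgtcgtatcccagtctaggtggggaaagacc

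The first 5 windows were nearly the same sequence. SPMI differed from AWN and from the second start of PSP-I at 1 of 170 bases each, from PSP-II at 3, and from AQN-1, whose start was placed 2 bases earlier, at 1 of 168 bases. The least alike pairs joined PSP-II with AWN and with the second start of PSP-I, at 4 differences in 170 bases, and with AQN-1, at 4 in 168 bases, an identity of 97.6%. TATATA began 30 bases before the start in 4 of the windows and 28 bases before it in AQN-1, and the first PSP-I start, with 54.2% of the TPM of that gene, held neither form and had an identity of 31.9% with AWN. The window before the start of the transcripts that join AQN-1 and PSP-II, at chr14:132258356-132258525 (+ strand) and not printed, held neither form within 40 bases before the start and TATAAA farther upstream, and its identity with AWN was 34.0%. The likeness thus covers 1 of the starts of PSP-I and not that of the joined transcripts, which stood among the most abundant in VG. The likeness of the transcripts themselves was not measured. How reads were divided between these related genes is uncertain, so their sum is given beside the level of each.

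For BG the windows of 3 of its strongest genes are shown: ENSSSCG00000037112, which RefSeq places at the gene for a zymogen granule protein 16 homolog B-like protein (written ZG16B-like here), TFF3, a trefoil peptide of mucus, and CRISP3, a secreted cysteine-rich protein.
ZG16B-like, chr3:39346828-39346997 (- strand): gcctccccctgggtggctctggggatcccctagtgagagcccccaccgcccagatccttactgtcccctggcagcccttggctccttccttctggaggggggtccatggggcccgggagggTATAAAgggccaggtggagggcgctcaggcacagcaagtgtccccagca
TFF3, chr13:205644314-205644483 (- strand): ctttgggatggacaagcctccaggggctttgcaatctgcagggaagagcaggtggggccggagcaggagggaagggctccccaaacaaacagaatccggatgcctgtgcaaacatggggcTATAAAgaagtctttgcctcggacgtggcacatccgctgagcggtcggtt
CRISP3, chr7:43804530-43804699 (- strand): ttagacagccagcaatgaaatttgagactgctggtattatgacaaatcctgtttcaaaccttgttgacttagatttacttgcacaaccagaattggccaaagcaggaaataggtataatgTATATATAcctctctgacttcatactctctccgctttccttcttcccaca

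Each of these also carried a TATA form at 28 to 30 bases before its start, with 2 overlapping copies in CRISP3. Over the windows of 12965 tested genes, 1.76% held TATAAA or TATATA on the gene strand within 40 bases before the start, against 5.0% of the 680 windows of genes called higher in VG and 2.85% of the 1331 of genes called higher in BG. The nearly identical windows of AWN, AQN-1, PSP-II and SPMI are among the 9 VG windows with TATATA and are not separate cases. The BG windows shown are counted too, and the motifs were chosen after values were seen. The hexamer AGAACA, a core element of androgen and glucocorticoid receptor sites, stood on either strand in 5.18% of all windows, in 6.76% of those of VG genes and in 5.71% of those of BG genes, and in none of the 9 windows shown. These are matches of letters and not measured binding.

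In VG the spermadhesin genes made up most of the transcript pool in 5 of 6 libraries. The 5 genes together with the transcripts that join AQN-1 and PSP-II held 45.8% to 62.4% of all TPM in the 6 VG libraries, with a median of 58.6%, against at most 0.0186% in any BG library. Through the text, 3 values in a row are the lowest, the median and the highest of the 6 libraries of a gland. PSP-I measured 216153, 246016 and 261758 TPM in VG and 0.275, 2.41 and 73.5 TPM in BG. The joined AQN-1 and PSP-II label measured 77957, 112550.0 and 138748 TPM in VG and 0, 0.669 and 31.4 TPM in BG. Both were far above any BG library in every VG library. SPMI stood at 76073, 108118 and 144264 TPM in VG and at 0, 1.42 and 33.1 TPM in BG. AWN stood at 56644, 73222 and 96681 TPM in VG and at 0, 0.474 and 27.7 TPM in BG. PSP-II alone reached 16050.4, 23411 and 32263 TPM in VG and 0, 0.324 and 16.2 TPM in BG, and AQN-1 alone 8509.9, 11226 and 14139.8 TPM in VG against 0, 0 and 3.68 TPM in BG. The 3 VG marker genes SPMI, AWN and PSP-II were thus high in every library labelled VG and low in every library labelled BG. BSP1, a seminal plasma protein of another family that binds the sperm membrane and whose gene lies on chromosome 6, was alike in pattern, with 22513, 26626 and 29662 TPM in VG and 0, 0 and 10.8 TPM in BG. In each of these 7 entries the highest BG value came from the same library, BMI BG replicate 2, which held 186 TPM of spermadhesin transcripts in all where the other 5 BG libraries held 0.275 to 10.7 TPM.

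In BG a single gene was the most abundant by far. ZG16B-like measured 170900.0, 271567 and 343370.0 TPM in BG, 17.1% to 34.3% of the transcript pool, and 0.25, 0.381 and 0.861 TPM in VG. TFF3 measured 8225, 9861 and 14956 TPM in BG and 0, 0 and 0.0898 TPM in VG. LMAN1L, a lectin of the family of cargo receptors that carry glycoproteins out of the ER, measured 725, 1261 and 1872 TPM in BG and 0, 0.0377 and 0.0594 TPM in VG. Both BG marker genes were thus near 0 in all VG libraries. MUC5B, a gel-forming mucin, reached 5376, 13277 and 19349 TPM in BG against 2.84, 5.96 and 9.64 TPM in VG. AGR2, a disulfide isomerase needed to fold mucins, reached 4892, 10651 and 22734 TPM in BG against 25.2, 51.5 and 103 TPM in VG. The other 2 of the 5 most abundant BG genes, ATP6 and COX3, are mitochondrial, and their levels depended on the scaling described next. The 10 most abundant genes of each library held 62.1% ± 6.29 (SD, n = 6) of TPM in VG and 36.1% ± 5.33 (SD, n = 6) in BG, a difference of 26.0 percentage points (p = 0.00216, exact permutation test, two-sided, the smallest p that 6 against 6 libraries allow).

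**Figure D1:**
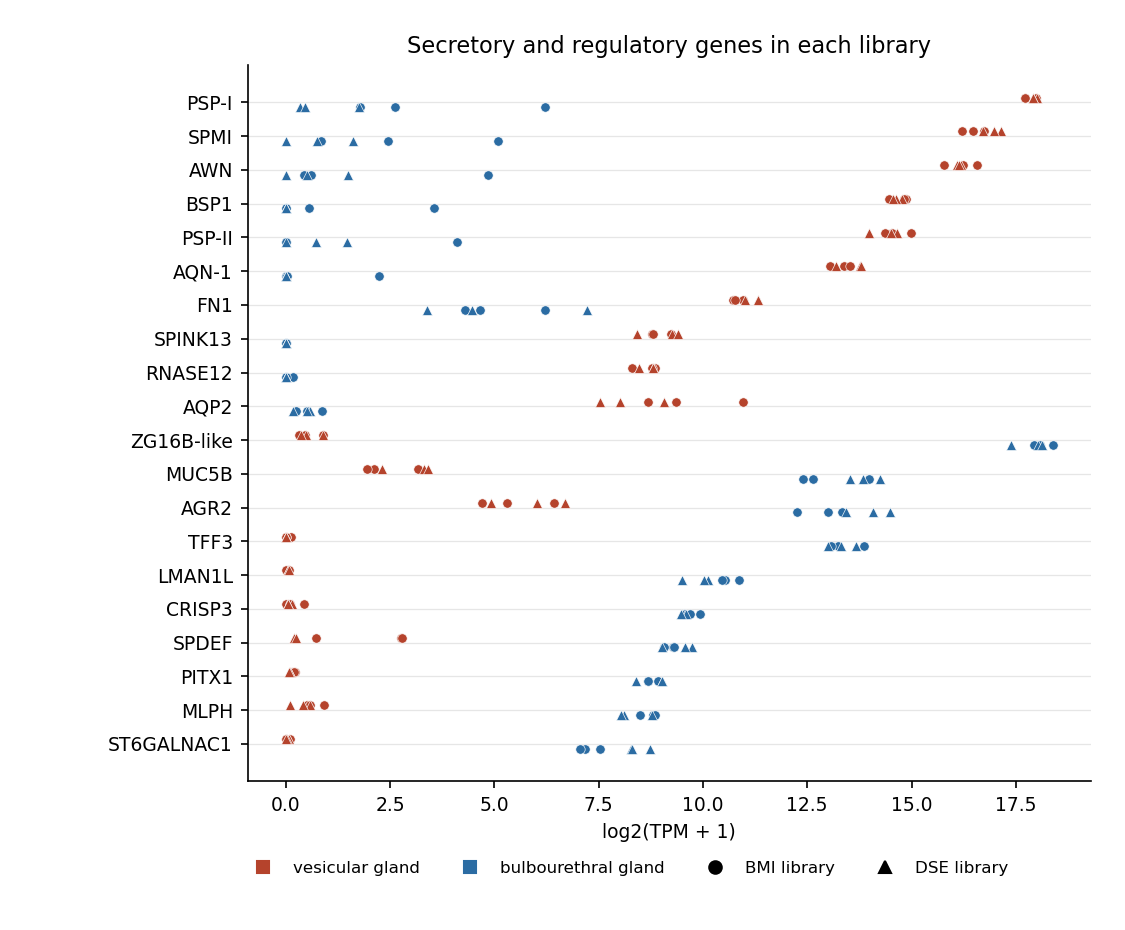
Level of 20 genes in each of the 12 libraries, as log2(TPM + 1), with VG in red, BG in blue, BMI libraries as circles and DSE libraries as triangles. The glands do not overlap for any gene shown, and the BG library farthest to the right in the spermadhesins is BMI BG replicate 2.

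Because TPM sum to the same total in every library, the level of each gene depends on the share that the most abundant genes take. Over the 13221 genes tested the median log2 difference (VG minus BG, on the log2(TPM + 1) scale) was -0.75. After the TPM of each library were divided by a size factor, the median over 16065 genes of its ratios to the mean library, the median difference was -0.04. The size factors ran from 0.473 to 1.18 in VG and from 1.05 to 1.57 in BG. With TPM, 691 genes (5.23% of those tested) were higher in VG and 4493 (34.0%) were higher in BG, at an adjusted p below 0.05 and a log2 difference of at least 1 (limma with breed as a covariate, Benjamini-Hochberg). With size factors the counts were 1401 (10.6%) and 1360 (10.3%), so the share of calls that favoured BG was 86.7% in the one and 49.3% in the other. All 691 genes higher in VG with TPM passed with size factors too, all 1360 genes higher in BG with size factors passed with TPM, and no gene was called in opposite directions. A further 710 genes were higher in VG with size factors alone. Below, a gene is called higher in a gland only where it passed under both scalings, which gives 691 genes or 5.23% for VG and 1360 genes or 10.3% for BG, and a further 3133 genes were higher in BG with TPM alone. ATP6 was one of these, at -1.73 ± 0.20 (SE) with TPM and -0.88 ± 0.28 with size factors. COX3 was another, at -1.21 ± 0.18 with TPM and -0.36 ± 0.23 with size factors.

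**Figure D2:**
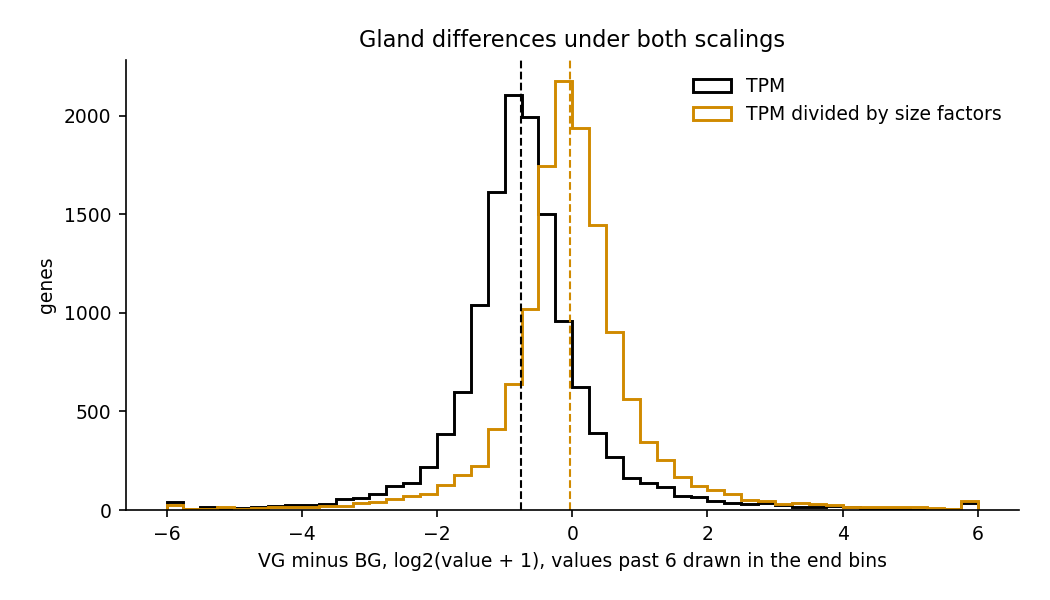
Number of genes against the log2 difference between the glands (VG minus BG), with TPM in black and with size factors in orange, and the medians as dashed lines at -0.75 and -0.04. The bulk of the genes lies left of 0 with TPM and around 0 with size factors.

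All 6 libraries of one gland lay above all 6 of the other in 553 genes for VG (4.18% of those tested) and in 4489 for BG (34.0%) with TPM, and in 1774 (13.4%) and 1942 (14.7%) with size factors. Of all called genes, 502 of 691 for VG and 1271 of 1360 for BG were separated in this way with TPM. Of the 132 called genes that the naming rule picked, 48 of 53 for VG and 75 of 79 for BG were. The rule took large differences and required this separation of its 8 genes per direction, so the counts for named genes were partly fixed in advance. The exceptions among the 132 were DES, ACTA2, TAGLN, CLDN1 and SERPINE2 for VG and OGN, LUM, C1QB and CSF1R for BG. The adjusted p values of the 132 genes were at most 0.0102 with TPM and 0.0313 with size factors. In whole glands, fewer cells of a type and less RNA per cell cannot be told apart, and this holds for every difference given here.

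Among called genes with a symbol and no overlap of the libraries, the 8 with the largest log2 difference toward VG were PSP-I, SPMI, AWN, BSP1, PSP-II, AQN-1, SPINK13 and RNASE12. They ran from 15.68 ± 0.67 (SE) for PSP-I down to 8.63 ± 0.15 for RNASE12 with TPM, and stood at 16.37 and 9.06 with size factors. SPINK13, a serine protease inhibitor of the Kazal type, measured 344, 524 and 678 TPM in VG and 0, 0 and 0.0104 TPM in BG. RNASE12, a member of the ribonuclease A family, measured 312, 440.3 and 462 TPM in VG and 0, 0 and 0.13 TPM in BG. The 8 largest toward BG were TFF3, MUC5B, LMAN1L, CRISP3, PITX1, SPDEF, MLPH and ST6GALNAC1, from -13.34 ± 0.17 for TFF3 to -7.82 ± 0.22 for ST6GALNAC1 with TPM. CRISP3 measured 709, 759 and 970.0 TPM in BG and 0, 0.0544 and 0.351 TPM in VG. MLPH, which links secretory and pigment granules to myosin motors, measured 259.7, 399 and 463 TPM in BG and 0.0709, 0.453 and 0.881 TPM in VG. With ST6GALNAC1, which puts sialic acid on the first sugar of mucin chains, and SPDEF, a factor of mucus-making goblet cells, the BG set held several genes known from mucus or from the export of glycoproteins.

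The mucus genes as a list favoured BG. List counts here and below stand beside 5.23% called higher in VG and 10.3% in BG over all genes tested. Of 10 tested members among 26 mucins and mucus-associated genes found, 7 were higher in BG and 1, the membrane mucin MUC15, was higher in VG (7.46, 20.6 and 29.9 TPM in VG and 0.15, 0.669 and 1.19 TPM in BG). Their median difference was -5.41 with TPM and -4.81 with size factors, beside -0.75 and -0.04 over all genes tested. ZG16B, the neighbour of ZG16B-like, measured 124, 176 and 490.3 TPM in BG and was listed at 0 in all VG libraries. CLCA1 and CLCA2, secreted and membrane proteins of mucous epithelia, stood at 41.9, 561 and 1154 TPM and 75.1, 149 and 217 TPM in BG, and no VG library reached 1 TPM of either. CLCA1 varied widely within BG, with 41.9 to 513 TPM in the 3 BMI libraries and 609 to 1154 TPM in the 3 DSE libraries. Of the trefoil and AGR list, 3 of 4 tested genes were higher in BG: TFF3, AGR2 and TFF2, the last with 9.8, 16.1 and 108 TPM in BG and listed at 0 in all VG libraries.

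Called sialic acid genes were all higher in BG, while the sugar transferases of the mucin chain split. Of 22 tested genes of sialic acid synthesis and transfer, 11 were higher in BG and none in VG (medians -1.57 with TPM and -0.88 with size factors). The sialyltransferase ST6GALNAC1 measured 132, 247 and 423 TPM in BG and 0, 0.00642 and 0.0761 TPM in VG. ST3GAL4 measured 291, 409 and 489 TPM in BG and 1.67, 3.8 and 8.77 TPM in VG, and ST6GAL1 measured 30.0, 68.8 and 82.2 TPM in BG and 0.436, 0.939 and 3.02 TPM in VG. In the list of mucin O-glycosylation, 32 genes were tested, 8 of which were higher in VG and 6 in BG (medians -0.06 with TPM and 0.66 with size factors). All 6 BG genes of this list were GALNT enzymes, which start the chain, and of the VG genes only GALNT7 was one, with GALNT12 at 129.6, 179 and 206 TPM in BG against 0.616, 1.11 and 4.12 TPM in VG, and GALNT7 at 7.27, 17.4 and 27.0 TPM in VG against 0.286, 0.954 and 1.62 TPM in BG. GCNT1, which branches the chain, stood at 52.7, 86.1 and 168 TPM in VG and 1.35, 1.86 and 4.26 TPM in BG. B3GNT3 and B3GNT7, which extend chains, were also higher in VG, at 2.67 and 2.58 on the log2 scale with TPM.

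Genes of folding and export that were called lay mostly on the BG side, which also had more calls over all genes tested (10.3% against 5.23%). Of 53 tested genes of cargo receptors and ER export, 11 were higher in BG under both scalings and none in VG. With TPM alone or under both, 33 were higher in BG, where 34.0% of all genes tested were higher in BG with TPM. LMAN1L was the largest, at -10.20 ± 0.18 (SE) with TPM and -9.74 ± 0.21 with size factors. It was followed by GOLM1, a Golgi membrane protein, at -4.38 and -3.60, by the coat subunit COPZ2 at -3.90 and -3.09, and by MIA3, which helps large cargo out of the ER, at -3.45 and -2.62. Of 49 ER chaperones and genes of the unfolded protein response, 9 were higher in BG and 1 in VG (medians -1.08 and -0.25). The stress sensors ERN2 and ERN1 were called in opposite glands. ERN2, the form known from goblet cells, stood at 83.4, 129 and 153 TPM in BG and 0.0174, 0.111 and 1.52 TPM in VG, whereas the widespread form ERN1 stood at 15.3, 30.5 and 42.9 TPM in BG and 56.6, 109 and 219 TPM in VG. CREB3L4 and CREB3L1, membrane-bound transcription factors that raise secretory capacity, were higher in BG at -6.32 and -2.83 with TPM, as was the ER disulfide reductase DNAJC10 at -4.38. Of 34 genes of the translocon and signal peptide processing, only TRAM2 was called, a share below the 10.3% over all genes tested. TRAM2 was higher in BG at -1.87 with TPM and -1.25 with size factors, where the median of the list was -0.04.

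**Figure D3:**
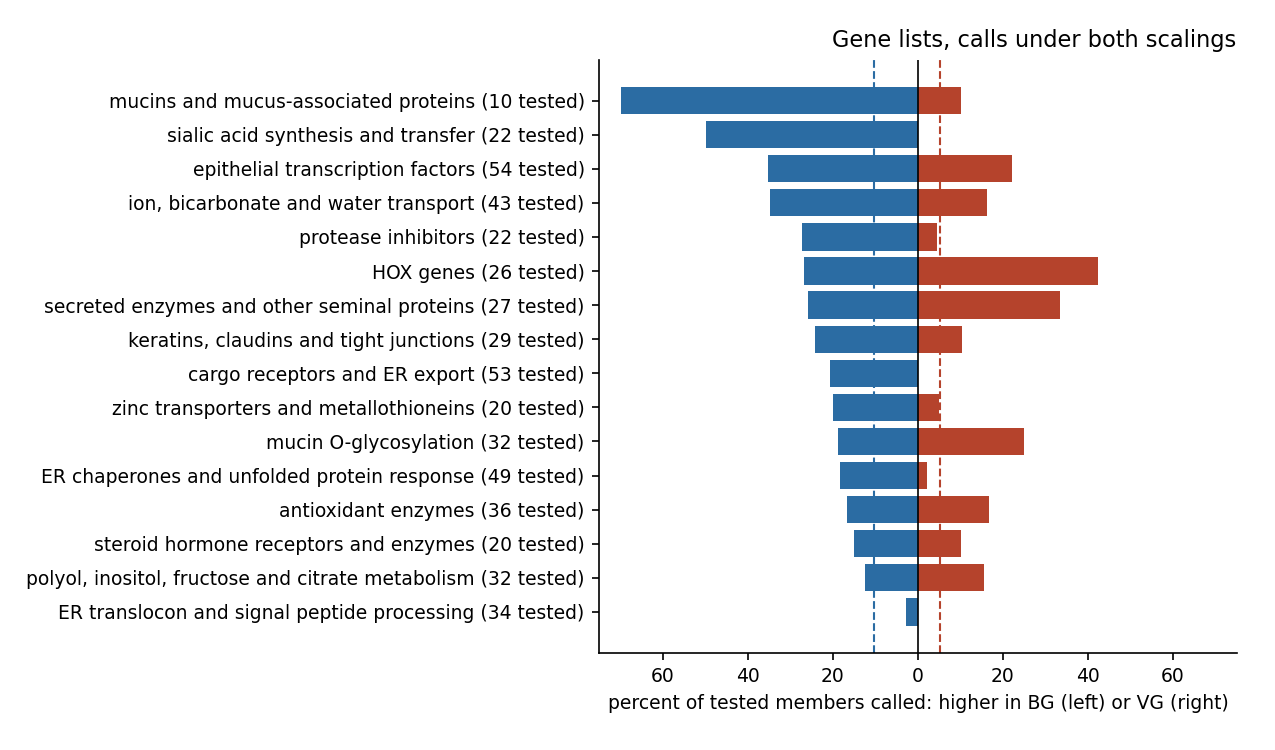
Percent of the tested members of 16 gene lists that were called under both scalings, higher in BG to the left in blue and higher in VG to the right in red. Dashed lines mark the percent over all genes tested, 10.3% for BG and 5.23% for VG. Of the 16 lists drawn, the mucus and sialic acid lists lie farthest from them on the BG side. The spermadhesin list and the trefoil and AGR list, with few tested members, and the lists of other cell types are not drawn.

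Secreted enzymes and other seminal proteins were divided between the glands. Of 27 tested, 9 were higher in VG and 7 in BG. FN1, the matrix protein fibronectin, measured 1677, 2026 and 2562 TPM in VG and 9.44, 22.5 and 148 TPM in BG. LTF, the iron binder lactoferrin, measured 60.3, 235 and 316 TPM in VG and 3.55, 11.3 and 31.8 TPM in BG. These and the peptidase DPP4 (log2 difference 3.04 with TPM) were on the VG side. On the BG side, after CRISP3, lysozyme (LYZ) measured 149, 282 and 317 TPM in BG and 1.13, 1.68 and 4.99 TPM in VG. The chaperone clusterin (CLU) measured 409.8, 600.1 and 998 TPM in BG and 12.2, 40.3 and 192 TPM in VG, and the serine protease PRSS33 14.4, 24.8 and 36.2 TPM in BG and 0.0931, 0.567 and 5.18 TPM in VG. Lactoferrin, higher in VG, and lysozyme, higher in BG, are both known as antibacterial, and no list of such proteins was counted. Of 22 protease inhibitors tested, 6 were higher in BG, among them SERPINA1 at -4.83, WFDC2 at -3.96, WFDC1 at -2.52 and SERPINB1 at -2.51, and SERPINE2 was higher in VG at 1.33 with TPM. With TPM 1 was higher in VG and 11 in BG, and with size factors 7 and 6, so the lean toward BG depended on the scaling. SPINK13 was not in that list.

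Genes of sugar, inositol and ergothioneine handling were among the VG genes. Of 32 tested genes of polyol, inositol, fructose and citrate metabolism, 5 were higher in VG and 4 in BG, beside 5.23% and 10.3% over all genes tested. The 2 enzymes that turn glucose into fructose by way of sorbitol were both higher in VG. AKR1B1, aldose reductase, measured 265, 402 and 766 TPM in VG and 14.8, 19.1 and 77.8 TPM in BG, with a log2 difference of 3.96 ± 0.43 (SE). SORD, sorbitol dehydrogenase, measured 86.9, 98.2 and 156 TPM in VG and 4.44, 4.98 and 5.35 TPM in BG, with a difference of 4.18 ± 0.16. SLC5A3, the sodium-coupled importer of inositol, stood at 13.8, 23.7 and 29.7 TPM in VG and 0.367, 0.702 and 1.11 TPM in BG. SLC22A4, the transporter of ergothioneine, stood at 6.74, 9.23 and 14.5 TPM in VG and 0.0675, 0.196 and 0.623 TPM in BG. On the BG side were GATM, the first enzyme of creatine synthesis, with 94.5, 128 and 159 TPM in BG and 0.683, 2.06 and 5.55 TPM in VG, the inositol transporter SLC2A13 at -2.99, and GPCPD1 at -2.33 with TPM. MIOX, the enzyme that breaks down inositol, measured 2.1, 3.28 and 3.93 TPM in BG and 0, 0.0139 and 0.0627 TPM in VG and was higher in BG. Inositol transporters were thus called in both glands.

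Transport of water, ions and metals differed by members as well. Of 43 tested genes of ion, bicarbonate and water transport, 7 were higher in VG and 15 in BG. AQP2, the water channel best known from the collecting duct of the kidney, measured 183, 473 and 1992 TPM in VG and 0.12, 0.427 and 0.812 TPM in BG. SLC26A3, an exchanger of chloride for bicarbonate, measured 73.6, 122 and 159 TPM in VG and 0, 0 and 0.0859 TPM in BG, and SLC9A3, an exchanger of sodium for protons, 54.2, 129.8 and 169 TPM in VG and 0, 0.0578 and 0.38 TPM in BG. The proton pump subunit ATP6V1C2 (5.19 with TPM) and the carbonic anhydrases CA2 and CA9 were higher in VG, whereas the pump subunit ATP6V0A4, the anion exchanger SLC26A7 and the carbonic anhydrases CA8 and CA12 were higher in BG. SLC12A2, the sodium, potassium and chloride importer of secretory epithelia, measured 318, 429 and 575 TPM in BG and 1.42, 3.77 and 7.88 TPM in VG. ATP2C2, a Golgi pump for calcium and manganese, measured 216, 266 and 322 TPM in BG and 0.142, 0.299 and 0.725 TPM in VG. The other water channels called, AQP1 and AQP5, were higher in BG. The subunit SCNN1A of the epithelial sodium channel (-5.78) and the metal importer SLC39A8 (-5.39) were also higher in BG. Of 20 zinc transporters and metallothioneins, 1 was higher in VG and 4 in BG: SLC30A2, which loads zinc into vesicles, measured 283, 443 and 519.8 TPM in VG and 0.0631, 0.37 and 0.474 TPM in BG, whereas MT3 (-4.56), MT1D (-2.86), MT1A (-2.69) and SLC30A4 (-1.66) were higher in BG. With TPM 1 was higher in VG and 11 in BG, and with size factors 4 and 4, so this lean toward BG depended on the scaling.

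The HOX genes, which mark position along the body axis, divided by cluster and in part by place within the cluster. Of 26 tested, 11 were higher in VG and 7 in BG under both scalings, and 19 were higher in VG with size factors. The clusters are described in order, and genes beyond the naming rule were chosen after their values were seen. All 8 tested genes of the HOXB cluster, HOXB2 to HOXB9, were higher in VG, by 2.86 (HOXB5) to 6.85 (HOXB6) with TPM. HOXB6 measured 112, 222 and 532 TPM in VG and 0.553, 0.949 and 1.11 TPM in BG, and HOXB8 measured 36.6, 76.2 and 131 TPM in VG and 0, 0.234 and 0.354 TPM in BG. In the HOXA cluster the 4 tested genes at the posterior end were higher in BG, HOXA9 at -4.22, HOXA10 at -3.83, HOXA11 at -3.54 and HOXA13 at -2.57. HOXD11, HOXD12 and HOXD13 were higher in BG too, HOXD11 at -4.40, HOXD12 at -3.11 and HOXD13 at -4.04. HOXD13 measured 54.8, 65.9 and 85.7 TPM in BG and 2.19, 2.42 and 7.1 TPM in VG. HOXA2, HOXD3 and HOXD9 were higher in VG under both scalings, and HOXA3, HOXA4, HOXA5, HOXA7, HOXD1, HOXD4 and HOXD8 had TPM differences of 0.33 to 0.84 that did not pass and passed with size factors at 1.09 to 1.56. The genes numbered 9 thus went both ways, HOXA9 toward BG and HOXB9 and HOXD9 toward VG. No gene of the HOXC cluster was tested, and their highest value in the 12 libraries was 1.92 TPM.

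**Figure D4:**
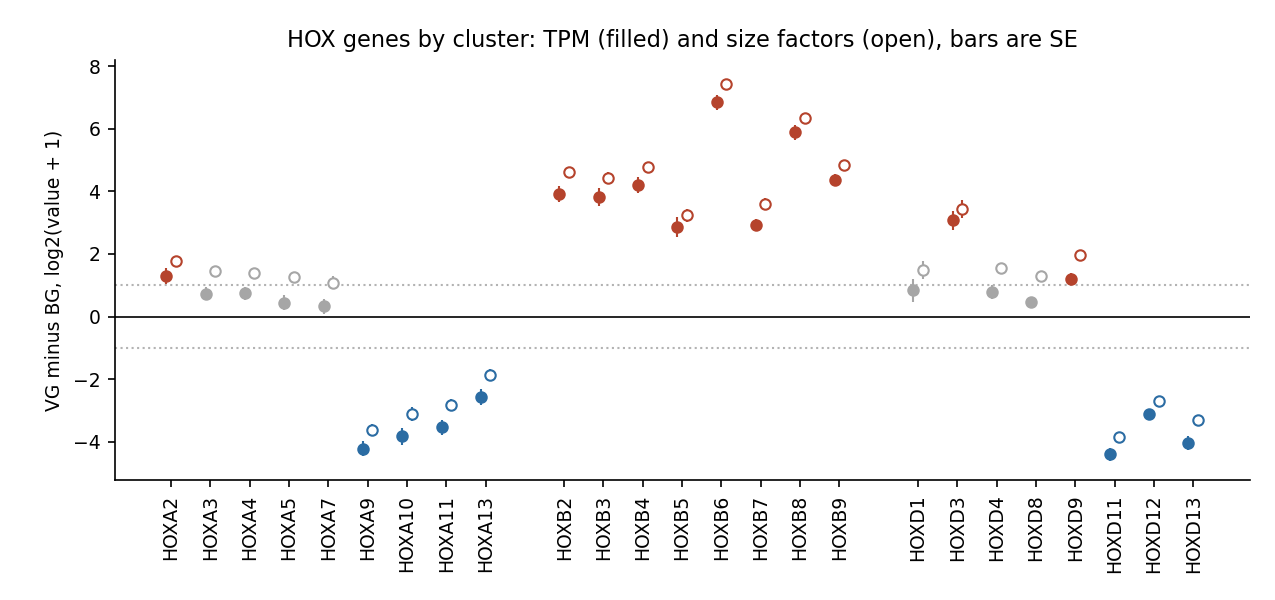
Log2 difference (VG minus BG) of tested HOX genes in cluster order, filled circles with TPM, open circles with size factors, bars 1 SE, red for higher in VG, blue for higher in BG and grey for not called under both scalings. The HOXB genes all lie above 1, and the genes numbered 9 to 13 of HOXA and 11 to 13 of HOXD all lie below -1.

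Other transcription factors were as sharply divided. Of 54 tested, 12 were higher in VG and 19 in BG. GATA2 measured 143, 292 and 506 TPM in VG and 1.41, 2.35 and 3.37 TPM in BG. PAX2, a factor of the developing urogenital tract, measured 20.8, 60.1 and 103 TPM in VG and 0, 0 and 0.0311 TPM in BG. BARX2 and EMX2 both differed by 5.28 with TPM, and EMX2, also a urogenital factor, reached no more than 0.492 TPM in BG. For BG, PITX1, a homeobox factor known from the hindlimb, measured 334, 446 and 521 TPM in BG and 0.047, 0.0946 and 0.157 TPM in VG. SPDEF measured 521, 625 and 846 TPM in BG and 0.146, 0.418 and 5.86 TPM in VG, with the 2 highest VG values in BMI libraries, and PAX9 stood at 84.3, 113 and 169 TPM in BG and 0.189, 0.268 and 0.637 TPM in VG. Among 20 steroid hormone receptors and enzymes, 2 were higher in VG (HSD3B1 at 3.21 and HSD17B11 at 2.02) and 3 in BG (HSD17B6 at -3.48, HSD11B1 at -2.85 and HSD11B2 at -1.95), and no hormone receptor was called.

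Redox and epithelial structure genes gave smaller sets. Of 36 antioxidant genes, 6 were higher in VG and 6 in BG, beside 5.23% and 10.3% over all genes tested. GPX6, a glutathione peroxidase, measured 42.1, 242 and 553 TPM in VG and 0, 0 and 0.285 TPM in BG, and GPX5 and GSTA1 measured 2.01, 6.83 and 13.6 TPM and 1.26, 10.1 and 66.4 TPM in VG and were listed at 0 in all BG libraries. GSTM3 was higher in VG at 2.09. QSOX1, an oxidase that forms disulfide bonds in secreted proteins, measured 218, 287 and 427 TPM in BG and 8.23, 17.1 and 26.0 TPM in VG. MGST1 (-3.30), GPX8 (-2.84) and GPX7 (-2.34) were higher in BG with TPM, and GPX7 and GPX8, like QSOX1, act on proteins in the secretory pathway. Of 29 keratins, claudins and tight junction genes, 3 claudins were higher in VG, CLDN8 at 4.16, CLDN23 at 3.80 and CLDN1 at 1.57. In BG, 7 were higher, led by KRT23 at -5.55, CLDN22 at -5.35, KRT80 at -3.83 and KRT18 at -3.07. General epithelial markers were present in both glands, with EPCAM, itself called higher in BG, at 108, 181 and 283 TPM in VG and 614, 719.5 and 879 TPM in BG, and CDH1 at 106, 157 and 217 TPM in VG and 90.4, 125 and 164 TPM in BG.

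The glands also differed in markers of cells other than their epithelium. Smooth muscle genes were higher in VG, 11 of 14 tested against none in BG, with a summed level of 768, 2961 and 5924 TPM in VG and 266, 331 and 991 TPM in BG. ACTG2 measured 29.4, 327 and 746 TPM in VG and 1.2, 3.97 and 7.79 TPM in BG, and MYH11, the heavy chain of smooth muscle myosin, 59.4, 261 and 473 TPM in VG and 13.4, 20.8 and 41.4 TPM in BG. CNN1 (4.30), MYLK (3.17), DES (4.17), ACTA2 (2.41) and TAGLN (2.34) were higher in VG with TPM and with size factors. BMI VG replicate 2, the library with the highest smooth muscle sum, had the lowest spermadhesin share of VG, 45.8%, where the other 5 held 57.1% to 62.4%. That rests on 1 library: BMI VG replicate 1, with the lowest sum (768 TPM), held 57.7%. The highest share, 62.4%, was in DSE VG replicate 1, with a sum of 2772 TPM. Macrophage genes were higher in BG, 6 of 10 tested against none in VG, with summed levels of 33.0, 137 and 237 TPM in VG and 243, 434 and 795 TPM in BG. These included TYROBP (-2.54), AIF1 (-2.48), C1QC (-2.34), C1QB (-2.13) and CSF1R (-1.83), while CD163 at -1.02 with TPM and -0.50 with size factors passed with TPM alone, and CD68 at 0.84 and 1.63 was higher in VG with size factors alone.

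Skeletal muscle transcripts were high in 2 BG libraries. Of the 28 listed genes only 5 were tested, and the 7 defining genes found summed to 448 TPM in BMI BG replicate 1 and 1660 TPM in DSE BG replicate 3, against 1.14 to 32.5 TPM in the other 4 BG libraries and 0.861 to 18.6 TPM in VG. ACTA1 had 0, 6.97 and 689 TPM in BG and 0, 3.21 and 17.6 TPM in VG and did not pass (adjusted p = 0.283, limma). TNNI2, called higher in BG at -3.42 ± 1.06 (SE), had 1.13, 7.36 and 427 TPM in BG, the highest in the same library as for ACTA1. CKM (188 TPM), TNNT3 (274 TPM), MYH2 (71.4 TPM), MYH1 (4.37 TPM) and MYH7 (6.09 TPM) had their BG maximum there as well and were not tested. Without both libraries, 1493 genes were higher in VG and 1375 in BG with size factors, and TNNI2 was at -1.59 with TPM and -1.22 with size factors. The size factor differences of CSF1R (-0.86), LUM (-0.80) and PECAM1 (-0.81) then no longer reached 1.

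The remaining lists held few calls. Of fibroblast genes, 2 of 13 were higher in BG, LUM at -1.84 and OGN at -1.91 with TPM, while COL1A1 (-1.54 with TPM and -0.70 with size factors), COL1A2 (-1.75 and -0.91) and DCN (-1.08 and -0.24) were not called under both. Of endothelial genes, 1 of 11 was higher in BG, PECAM1 at -1.84, and CDH5 at -0.83 was not. That count lay near the 10.3% over all genes tested. JCHAIN, which joins antibody chains, was higher in BG with 15.2, 114 and 279 TPM against 1.33, 2.04 and 3.24 TPM in VG, but MZB1 at -1.08 with TPM and -0.40 with size factors was not called and CD79A did not exceed 3.44 TPM. Of T cell genes LCK was higher in BG at -2.35, and CD3E at -0.62 and CD2 at -0.78 were not called, nor was CD3D tested (at most 1.34 TPM). The glial gene SOX10 at -0.89 was not called. The adipocyte genes ADIPOQ and PLIN1 reached 45.8 and 18.7 TPM in BMI BG replicate 2 and at most 0.291 TPM in any other library, LEP stayed at or below 0.553 TPM, and the germ cell genes PRM1, TNP1 and ODF1 stayed at or below 4.29 TPM. The part of these other cells in the gland differences was not tested.

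**Figure D5:**
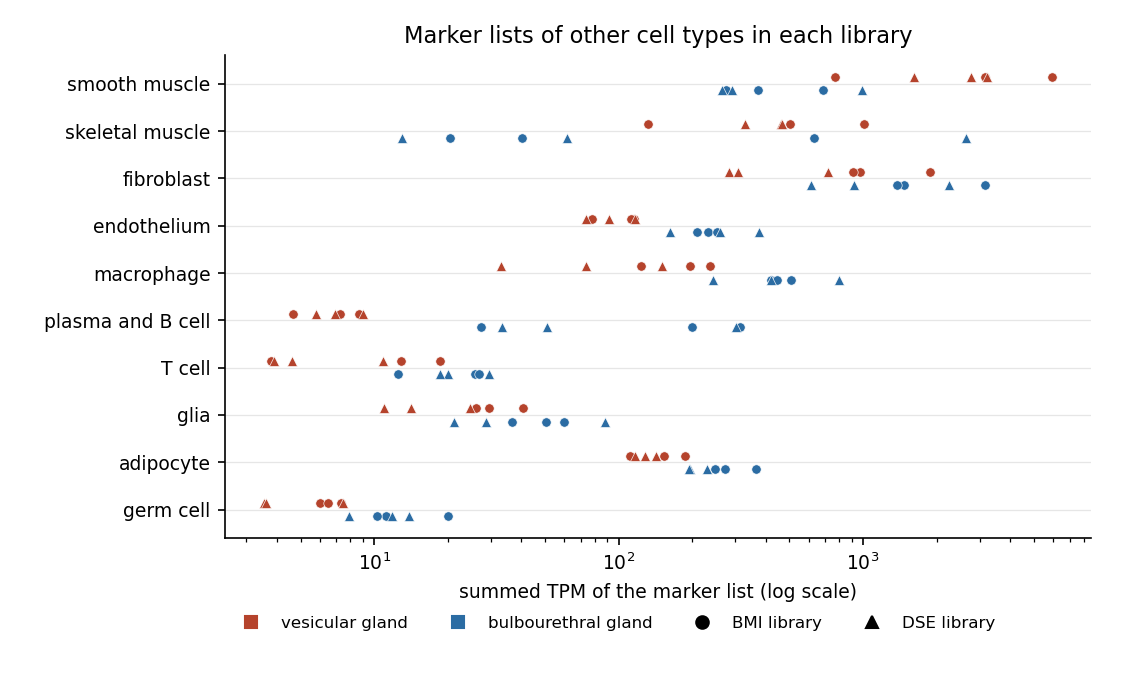
Summed TPM of the marker lists of 10 other cell types in each library on a log scale, VG in red, BG in blue, BMI as circles and DSE as triangles. Smooth muscle is higher in VG in 5 of 6 libraries than in any BG library, skeletal muscle, whose list shares DES with smooth muscle, stands out in the 2 rightmost BG points, and macrophage sums are higher in all BG libraries than in any VG library.

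Full-length Iso-seq reads gave another view of the same glands, with 1 library for each breed and gland and no test. The BMI library of BG held 1998 reads of ACTA1 and 1267 of CKM, skeletal muscle genes with none in the DSE library of BG. The full-length reads assigned to the deposited isoforms summed to 293781 and 318115 in the BMI and DSE libraries of VG and to 388569 and 265410 in those of BG. These sums are not the depth of the libraries, and shares of reads below are shares of them. PSP-I had 4309 and 7211 reads in the BMI and DSE libraries of VG and none in BG, and SPMI had 1832 and 2944 in VG and 0 and 1 in BG. Transcripts that run from AQN-1 into PSP-II had 6225 and 7565 reads in VG, far above the 72 and 47 of PSP-II alone. ZG16B-like had 1039 and 1043 reads in BG and none in VG, MUC5B 124 and 925 in BG and 0 and 1 in VG, and CRISP3 1029 and 750 in BG and none in VG. FN1 had 6163 and 8445 reads in VG and 59 and 32 in BG. Read numbers did not follow TPM levels between genes: DNAJC10, with a median of 331 TPM in BG against the 271567 TPM of ZG16B-like, had 1045 and 1125 reads there, as many as ZG16B-like or more. The reads therefore bear on the direction between the glands and not on the abundance of ZG16B-like. Of the 691 genes called higher in VG, 345 had at least 20 full-length reads over the 4 libraries, as had 721 of the 1360 called higher in BG. A gene near 0 in 1 gland can reach 20 reads only through the other, so passing nearly fixed its direction. The counts that follow are therefore a description. Of the 345 genes, 325 took a larger share of the reads in VG than in BG in both breeds and none a smaller share in both. Of 721 such genes called higher in BG, 663 took a larger share in BG in both breeds and 2 took a larger share in VG in both. Of 6207 such genes called in neither direction, 1469 (23.7%) took a larger share in VG in both breeds and 2058 (33.2%) a larger share in BG.

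Few genes had a difference between the glands that differed between the breeds. This was so in 8 of 13221 genes (0.0605%) with TPM and in 24 (0.182%) with size factors, at an adjusted p below 0.05 for the interaction of breed and gland (limma), and all 8 were among the 24. With TPM and a replicate block, only 1 gene was called. With TPM, leaving out single libraries gave 1 such gene without any 1 of the BMI BG libraries or without DSE VG replicate 1 or 3, 2 to 4 without BMI VG replicate 1 or 2 or DSE BG replicate 1, 15 without DSE VG replicate 2 and 16 without DSE BG replicate 3, so the count is unsettled. GREB1L, a relative of an estrogen-regulated gene with a role in kidney development, changed sides. In BMI it had 7.74, 13.4 and 9.72 TPM in VG against 0.367, 0.513 and 0.388 TPM in BG, and in DSE 2.07, 3.38 and 1.94 TPM in VG against 15.1, 10.5 and 6.08 TPM in BG (replicates 1, 2 and 3). The gland difference was 2.96 in BMI and -1.68 in DSE, an interaction of -4.64 ± 0.43 (SE, adjusted p = 0.00125) with TPM and -4.02 ± 0.40 (adjusted p = 0.00402) with size factors. OLFM1, a secreted olfactomedin protein, had a gland difference of -4.30 in DSE and -1.18 in BMI (interaction -3.12 ± 0.43, adjusted p = 0.0241, limma). TBC1D1, a regulator of vesicle traffic, had 18.2 to 44.0 TPM in the VG of BMI and 2.33 to 4.47 TPM in the VG of DSE, with 44.7 to 64.7 TPM in all BG libraries (interaction -3.03 ± 0.43, adjusted p = 0.0241, limma). Leaving out single libraries ended the call of OLFM1 in 7 of 12 cases (each BMI BG library, BMI VG replicates 1 and 2, and DSE VG replicates 1 and 3) and that of TBC1D1 in 7 (each BMI BG library, BMI VG replicate 2, DSE BG replicate 1, and DSE VG replicates 1 and 3), and that of GREB1L in none. The calls of OLFM1 and TBC1D1 were also lost under a replicate block, though the labels do not pair libraries by number.

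Levels in the other 3 glands of the series are given for some of the genes, and not for all. ZG16B-like had a median of 247792 TPM in the 6 prostate libraries, close to its 271567 TPM in BG. TFF3 (6.01 TPM), LMAN1L (2.68 TPM), MUC5B (18.1 TPM) and CLCA1 (0.1 TPM) had low medians in prostate. CREB3L4 had a median of 125 TPM in prostate against 179 TPM in BG. CLU had medians of 1454 TPM in epididymis and 1187 TPM in testis against 600 TPM in BG. Of the VG genes, RNASE12 had a median of 1076 TPM in epididymis against 440.3 TPM in VG, and LTF 1543 TPM against 235 TPM. EMX2 had 50.6 TPM in epididymis against 45.3 TPM in VG. In prostate DPP4 had 56.9 TPM and B3GNT3 72.4 TPM, against 29.3 and 56.3 TPM in VG. The smooth muscle genes ACTA2 and ACTG2 had 2035 and 801 TPM in epididymis and 441 and 253 TPM in prostate, against 475 and 327 TPM in VG. The spermadhesins had medians of at most 50.1 TPM in epididymis for any 1 gene, and AQP2 was listed at a median of 0 there. These medians are given as levels, and no test was made between these glands.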

How the data were processed

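RNA-seq was made from 5 glands of both breeds, and the 12 VG and BG libraries were used. Per the study's methods the authors trimmed reads with cutadapt, aligned them to Sscrofa11.1 with STAR (2.7.10a in the submitters' processing notes) and quantified transcripts with Salmon (1.9.0 in those notes) on Ensembl models merged with Iso-seq transcripts. The methods name poly-T beads where the labels name ribosomal RNA depletion. The deposited values are TPM per transcript, and TPM keep no depth. Read totals stated by the study were not used here, and no counting interval is given. The Iso-seq table as deposited holds read counts without normalization, and these were only described. The miRNA table was not used here.

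TPM were summed by gene and taken as log2(TPM + 1). Genes that reached 1 TPM in 6 or more libraries were tested with limma 3.58.1 in R 4.3.3 (breed as a covariate, Benjamini-Hochberg over all genes), with TPM and with size factors. Genes without a symbol were matched by position to RefSeq (936 new names). How reads were divided between related genes, such as the spermadhesins, is uncertain, and the identity of their transcripts was not measured. On simulated data for VG against BG, 96.5%, 98% and 99.5% of 200 genes among 13221 changed by 1.5, 2 and 3 on the log2 scale were recovered. False calls numbered 5, 11 and 2. The simulation had normal noise, changes balanced in direction, no shift in the composition of libraries and 1 scaling. It therefore does not describe calls made under both scalings in these data. The gene lists, the members and the tests were chosen with earlier results of these data known. Named genes were the 5 marker genes, the 5 most abundant genes of each gland, the defining genes of other cell types, and interaction genes. They also held the 8 largest differences in each direction among called genes with a symbol and no overlap of the libraries. Up to 4 called genes per list and direction, the largest differences first, were added. The motifs, the second PSP-I start and the neighbouring genes were chosen after values were seen. Alternatives were other scalings, pseudocounts and filters, no breed term, 1 fit of 5 glands, a replicate block and leaving out libraries. Some genes that the rule names are not reported here.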

Additional observations from a re-analysis of the deposited data

Results flagged for a closer look

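Of 281 values per gland that were examined, 29 (10.3%) had 1 library far from the other 5 by Dixon's test, where chance marks about 1 in 20. In BG, 8 came from BMI BG replicate 2. It held 27.7 TPM of AWN (at most 1.81 in the other 5), 16.2 TPM of PSP-II (at most 1.77), 3.68 TPM of AQN-1, 31.4 TPM of the joined AQN-1 and PSP-II label, 10.8 TPM of BSP1 and 0.0186% of TPM as spermadhesins. It also held 45.8 TPM of ADIPOQ and 18.7 TPM of PLIN1, against at most 0.0773 and 0.174 TPM in the other 5.

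DSE BG replicate 3 stood apart for the skeletal muscle genes MYH2 (71.4 TPM), MYH1 (4.37 TPM) and MYH7 (6.09 TPM), for the macrophage genes TYROBP (167 TPM) and CD163 (11.8 TPM), and for HSD3B1 (2.58 TPM). DSE BG replicate 1 was high in MIA3 (296 TPM) and GALNT10 (65.3 TPM). LYZ was low in BMI BG replicate 3 (149 TPM), and ST6GALNAC2 was low in DSE BG replicate 2 (83.4 TPM).

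In VG, BMI VG replicate 2 had the lowest share of TPM in its 10 most abundant genes (49.9%) and in spermadhesins (45.8%), and the highest values of GPCPD1 (3.84 TPM), KRT80 (3.15 TPM), HSD11B2 (2.40 TPM) and SLC2A13 (1.08 TPM), all 4 called higher in BG. BMI VG replicate 1 was low in ACTG2 (29.4 TPM, others 243 to 746) and high in CD68 (38.3 TPM). DSE VG replicate 1 was low in GALNT7 (7.27 TPM) and high in PRSS33 (5.18 TPM), and BMI VG replicate 3 was low in MZB1 (1.41 TPM).

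The difference between the glands differed between the breeds, by the interaction test, in GREB1L (-4.64 as DSE minus BMI on the log2 scale), OLFM1 (-3.12) and TBC1D1 (-3.03). The causes of these departures were not tested.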

How the results depend on the processing

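The counts of genes depended on the scaling. Genes higher in VG numbered 691 with TPM, 1507 after rescaling without the genes above 1% of TPM and 1401 with size factors. With size factors they numbered 1405 with a replicate block, 1493 without both BG libraries with skeletal muscle transcripts and 1410 without BMI BG replicate 2. Genes higher in BG numbered 4493 with TPM and 1612, 1360, 1362, 1375 and 1380 in the same order. The other alternatives kept both counts within 1.5 times, and leaving out each library in turn gave 641 to 762 for VG and 3937 to 5224 for BG. Genes whose difference differed between the breeds numbered 8 with TPM, 24 with size factors, 37 with no filter on low TPM, 4 with a pseudocount of 0.1, and 1 without both libraries with skeletal muscle transcripts. Leaving out single libraries gave 1 to 16: 1 without any 1 of the BMI BG libraries or DSE VG replicate 1 or 3, 2 without BMI VG replicate 2, 3 without DSE BG replicate 1, 4 without BMI VG replicate 1, 15 without DSE VG replicate 2 and 16 without DSE BG replicate 3. The share of TPM in the 10 most abundant genes differed by 24.4 to 28.5 percentage points when single libraries were left out. The cause was not tested. The calls of OLFM1 and TBC1D1 for the breeds were lost in many of these settings and under the block, and that of GREB1L was kept in all that were run. Of the 132 named genes called, 127 were called alike in all 25 settings, and no direction turned. Those that lost a call included CSF1R, LUM, PECAM1 and TNNI2, the last with an adjusted p of 0.058 (limma) when no filter on low TPM was set. The settings with size factors and a block, or with those libraries left out, were added after the data were seen.

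Libraries share replicate numbers across glands. Deviations of libraries with the same number correlated at 0.308, 0.218 and 0.108 in BMI and -0.237, -0.284 and -0.177 in DSE, so the numbers were not taken to pair libraries. With the replicate block, 698 genes were higher in VG, 4498 in BG and 1 differed between the breeds.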

Other observations

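Genes outside the lists were also called alike beside called neighbours, some of which are in the lists, a pattern looked for after the values were seen. At chr1:126572492-126701138 of Sscrofa11.1, DUOX1, DUOXA1 and DUOXA2, an oxidase that makes hydrogen peroxide and its maturation factors, were higher in VG beside SORD, by 1.20, 1.03 and 1.79 on the log2 scale with TPM. At chr14:15011711-15194062 the defensins DEFB136 and DEFB134, of the beta-defensin family of antimicrobial peptides, had medians of 53.4 and 31.5 TPM in VG and did not exceed 0.133 TPM in BG. Beside them ENSSSCG00000062227, without a symbol, had a higher median, 146 TPM in VG, and was listed at 0 in all BG libraries. SPINK14, near SPINK13 on chromosome 2, measured 26.1 to 119 TPM in VG and at most 0.144 TPM in BG. The most abundant gene of that run was ENSSSCG00000029257, without a symbol. It measured 10508 to 16627 TPM in VG and at most 1.81 TPM in BG, a log2 difference of 13.1 with TPM.

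In BG, the gap junction gene GJB2 measured 185.8 to 287.8 TPM against 0.315 to 3.97 TPM in VG, a difference of -6.89 ± 0.27 (SE, n = 6 per gland), and its neighbour GJB6 differed by -1.89 ± 0.31. The proteases PRSS22 (-3.71), a member of the list of secreted enzymes, and PRSS27 (-4.02) were higher in BG beside ZG16B-like at chr3:39302369-39429588. EVX1, next to HOXA13, measured 6.72 to 17.2 TPM in BG and at most 0.225 TPM in VG.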
